A study of Mus musculus with 172 samples.

Results

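The 37 genes described here encode the core machinery of autophagy and its cargo receptors. They were chosen by symbol out of 49671 genes counted in single inner cell mass (ICM) cells of mouse blastocysts. All 37 were found in the count files, each under 1 Ensembl identifier. Cells came from litters of Oct4+/- parents of mixed genetic background. They carried 2 (WT), 1 (HET) or no (MUT) functional copies of Pou5f1, the gene for the transcription factor OCT4, whose deletion every cell of a MUT embryo carries. Embryonic day (E) 3.5 ICMs gave 42 WT cells (5 embryos), 16 HET cells (2 embryos) and 29 MUT cells (4 embryos). At E4.5 there were 19 MUT cells of 2 embryos. A further 66 control cells, of 2 WT and 4 HET embryos, carried the authors' assignment, made from these transcriptomes, to the epiblast (EPI, 37 cells) or the primitive endoderm (PrE, 29 cells). The trophectoderm (TE) had been removed by immunosurgery and used for genotyping. WT and HET embryos formed the control group at both stages. The cells of each embryo were added up, and embryos were the replicates.

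Autophagy encloses cytoplasm in a double membrane and delivers it to the lysosome. The ULK kinase complex starts the process, a class III PI3-kinase complex marks the membrane with PI3P, and lipid is moved into the growing membrane by ATG2 proteins working with the scramblases ATG9A, VMP1 and TMEM41B. The WIPI proteins read PI3P, 2 ubiquitin-like conjugation systems then attach proteins of the LC3 and GABARAP families to the membrane, and receptors such as p62 (Sqstm1) tie cargo to them. Embryos need autophagy soon after fertilization, when maternal proteins are broken down, and the question put to these genes was whether loss of OCT4 in the ICM goes with a change in their RNA.

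Each cell held between 363819 and 4644070 counts in genes at E3.5, and between 611759 and 3065950 at E4.5. Pou5f1 fitted the labels. Its level ran from 199 to 435 counts scaled to a common library size (CPM) in the 7 E3.5 control embryos and was 5.93, 3.66, 2.73 and 4.93 CPM in the E3.5 MUT embryos. It was at 0 counts in both E4.5 MUT embryos and between 46.8 and 242 CPM in EPI and PrE sums. All E3.5 cells came from 1 plate and all E4.5 cells from another, so stage and plate cannot be told apart and levels at the stages are set side by side without a test. RNA content per cell was not measured: every level is a share of the counts of the embryo. Markers of all 3 lineages moved with genotype. At E3.5 the sum of 14 PrE markers was 170.5 to 396 CPM in controls (Foxa2 at 0) and 425 to 659 CPM in MUT (Sox17, Sox7 and Foxa2 at 0), and that of 12 EPI markers, all detected, was 1679.6 to 2497 CPM in controls and 1113 to 1573 CPM in MUT. Of those tested, 3 of 10 PrE markers were called higher and 1 lower, and 6 of 12 EPI markers were called lower and none higher. The 15 TE markers summed to between 305 and 1015 CPM in E3.5 controls (Krt19 at 0), 1335 to 2183 in E3.5 MUT (Gata2 among those at 0), 157 to 449 in EPI (Cdx2, Elf5 and Krt7 at 0) and 797 to 1730 in PrE (Elf5 and Krt7 at 0). In the 2 E4.5 MUT embryos they summed to 8636 and 10153 CPM with every marker detected. EPI and PrE sums fitted their own marker lists, at 3351 to 4811 CPM of 12 EPI markers in EPI and 5092 to 10570 CPM of 14 PrE markers in PrE. E4.5 MUT embryos 3 and 8 held 2054 and 871 CPM of EPI markers (Gdf3 at 0) and 689 and 1072 CPM of PrE markers (Sox7, Foxa2 and Hnf4a at 0). The part of these markers in the differences described for autophagy genes was not tested. Of the TE markers tested, 4 of 10 were called higher (adjusted p under 0.05) in MUT at E3.5, 7 of 14 against EPI and 4 of 15 against PrE, and none lower.

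Tmem41b, Map1lc3b and Gabarapl2 held most of the summed level of the members in both E3.5 groups and in E4.5 MUT, but the smaller part of it in EPI and PrE. The 3 genes together averaged 7138 CPM ± 660 (SD, n = 7) in E3.5 controls and 8900 ± 546 (n = 4) in E3.5 MUT. At E4.5 they averaged 1306 ± 190 in EPI (n = 6) and 704 ± 211 in PrE (n = 6), but 6551 ± 1209 in MUT (n = 2). MUT embryos at E4.5 thus held 5.02 times the EPI and 9.31 times the PrE level of the 3 genes, while their own values, 5697 and 7406 CPM, straddled the lowest E3.5 control value of 6306. The other 34 members summed to 3372 ± 276 CPM in E3.5 controls, 4511 ± 396 in E3.5 MUT, 1719 ± 146 in EPI, 1683 ± 235 in PrE and 3041 ± 27.4 in E4.5 MUT. Thus 79.9% of the difference in summed level between E4.5 MUT and EPI, and 81.2% of that between MUT and PrE, lay in these 3 genes, which were singled out after their values were seen.

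**Figure D1:**
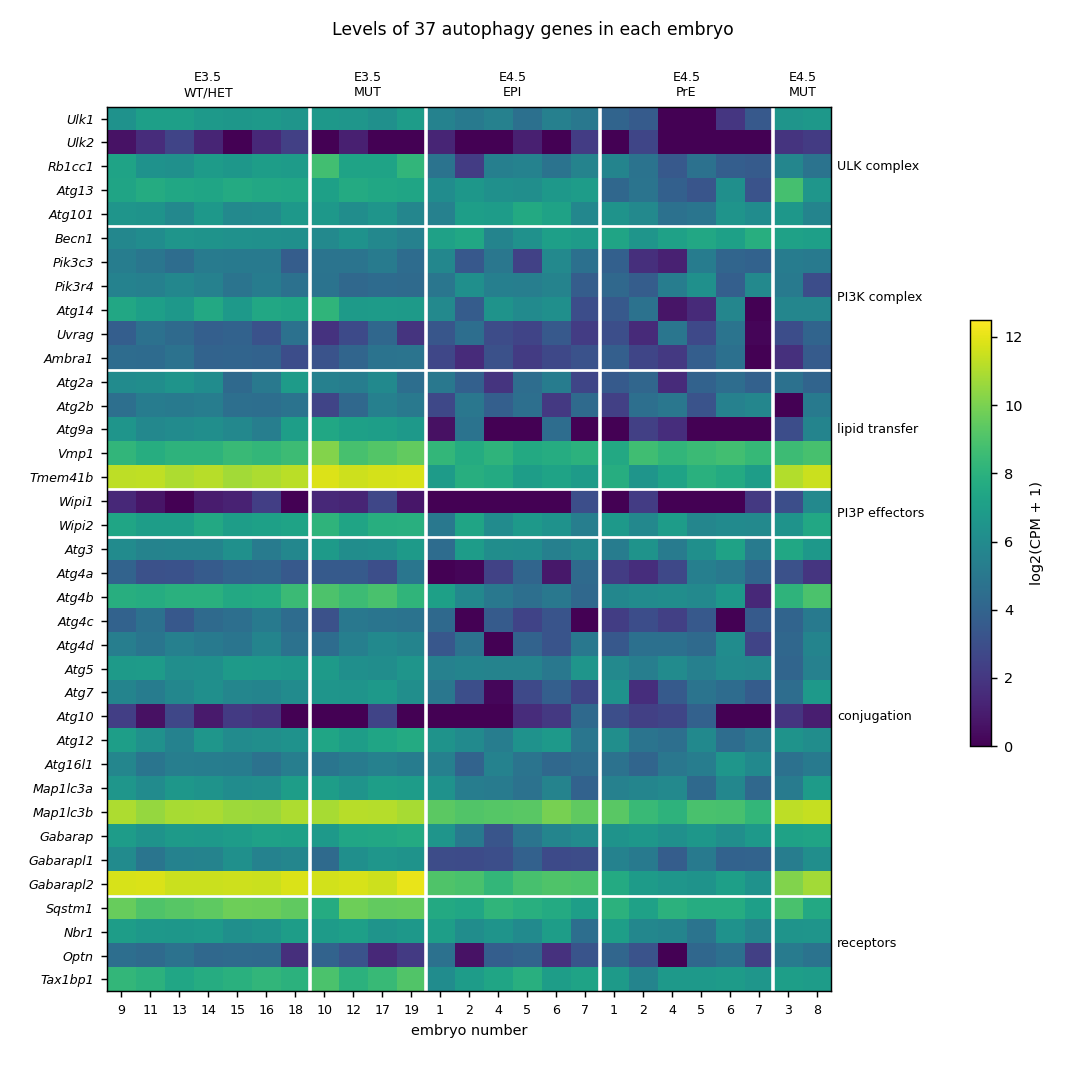
Level of each of the 37 genes (rows, grouped by step) in each embryo sum (columns, with the embryo number), as log2(CPM + 1). Tmem41b, Map1lc3b and Gabarapl2 form bright rows in both E3.5 groups and in the 2 E4.5 MUT embryos and are darker in the 6 EPI and 6 PrE sums.

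Levels of different genes were compared per length, as CPM divided by the exon length in kilobases (FPKM). Among the ULK complex genes, Atg101, which steadies Atg13, was the highest in E3.5 controls at a mean of 49.5 FPKM, and Ulk2, a kinase related to Ulk1, was the lowest at 0.354. The PI3-kinase complex ran from 34.2 FPKM for Atg14, the subunit that directs it to autophagy, to 1.82 for Uvrag, the alternative subunit of endosomal complexes. Lipid transfer ran from 373 FPKM for Tmem41b to 2.15 for Atg2b. Of the PI3P readers, Wipi2 was at 13.6 FPKM and Wipi1 at 0.277. In the conjugation group Gabarapl2 stood at 1363 FPKM, the highest of all 37, and Atg10, the enzyme that joins ATG12 to ATG5, at 1.38. Receptors ran from 210.2 FPKM for Sqstm1 to 4.67 for Optn, optineurin.

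Step by step, the E4.5 MUT sums of lipid transfer and conjugation lay above those of both control lineages, and those of the PI3-kinase complex overlapped them. Summed lipid transfer genes ran from 2195 to 3048 CPM in E3.5 controls and from 3699 to 4975 in E3.5 MUT, without overlap. They ran from 363 to 505 CPM in EPI and from 420 to 681 in PrE, and were 2528 and 3491 CPM in the E4.5 MUT embryos. Summed conjugation genes ran from 5335 to 6634 CPM in E3.5 controls and from 6424 to 7576 in E3.5 MUT, which overlapped. In EPI they ran from 1199 to 1882 CPM and in PrE from 757 to 1346, against 4439 and 5751 CPM in E4.5 MUT. Lipid transfer rested on Tmem41b, the 1 gene of 5 called at E4.5. E4.5 MUT held 6.82 times the EPI and 5.49 times the PrE level of the step, but 1.69 and 1.28 times without Tmem41b, the latter with overlap. ULK complex genes ran from 444 to 509 CPM in E3.5 controls, from 492 to 752 in E3.5 MUT, from 184 to 333 in EPI and from 47.7 to 178 in PrE, and were 687 and 275 CPM in E4.5 MUT, 4.28 times the PrE level and without overlap with PrE, although the groups overlapped in summed FPKM. PI3-kinase complex genes averaged 324 CPM ± 35.5 (SD, n = 7) in E3.5 controls, 291 ± 82.2 (n = 4) in E3.5 MUT, 250.2 ± 64.3 in EPI, 242 ± 66.6 in PrE and 262 ± 16.1 in E4.5 MUT, and every pair of groups compared overlapped. Receptors averaged 1073 ± 142 CPM in E3.5 controls and 1157 ± 233 in E3.5 MUT, then 435 ± 96.4 in EPI, 379 ± 100.6 in PrE and 579 ± 225 in E4.5 MUT, again with overlap in every comparison. The PI3P readers averaged 145 ± 23.2, 228 ± 49.5, 81.2 ± 44.8, 76.8 ± 28.6 and 166 ± 105 CPM in the same order of groups.

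**Figure D2:**
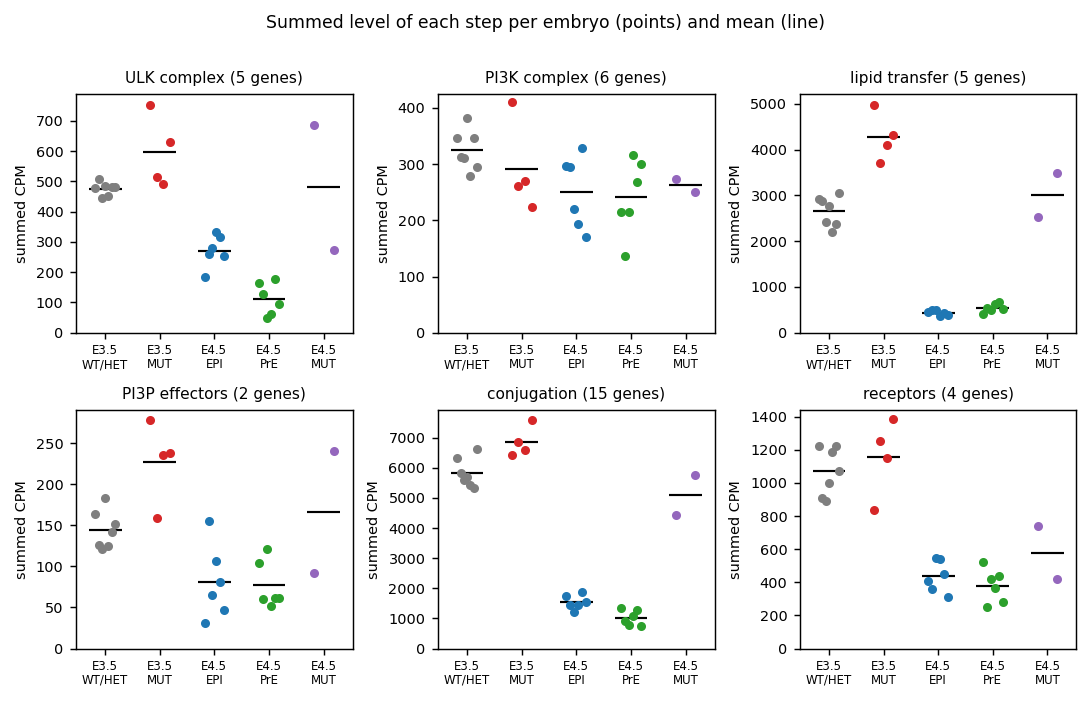
Summed CPM of the genes of each step (y axis, from 0) in each embryo (points) with the group mean (line), for the 5 groups. For lipid transfer and conjugation the 2 E4.5 MUT points lie above every EPI and PrE point, whereas the PI3-kinase complex points of all groups overlap.

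At E3.5, MUT ICMs held more RNA of genes from several steps: Vmp1 and Tmem41b of lipid transfer, Rb1cc1 of the ULK complex, the PI3P reader Wipi2, and Atg12, Atg4b and Atg7 of conjugation. These 7 of 37 members tested were called higher at an adjusted p under 0.05 and none was called lower (edgeR quasi-likelihood test, adjusted over 12075 genes). By the same test, 3.20% of all tested genes were called higher and 2.98% lower. DESeq2 called 10 members higher and Pik3r4 lower, and its share of all genes is not given here. By edgeR, 12 members had an unadjusted p under 0.05. The share of all genes at that level was not taken, here or in the later comparisons, so such counts have no background beside them. The median log2 fold change of the members was 0.19, beside -0.02 over all tested genes. Of the 7 calls, Vmp1 and Tmem41b held in each of 11 fits that left out 1 embryo. MUT embryo 10 bore on the others: without it, 2 members were called, and with WT embryos alone as controls the same 2 were. The counts over all genes in these fits are not given here. Atg4b, Atg7 and Wipi2 were kept in 3, 2 and 2 of the 11 fits and were lost without several control embryos too. MUT embryo 10 had the highest Vmp1, Rb1cc1, Tmem41b, Atg4b and Wipi2 and the lowest Sqstm1 and Gabarapl1 values of its group. The median mitochondrial share of its cells was 13.7%, against 6.93 to 10.6% in the other MUT embryos and 8.03 to 12.2% in controls. The part of that share was not tested.

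At E4.5, MUT ICMs differed from EPI by higher Tmem41b, Map1lc3b, Gabarapl2, Atg4b and Gabarapl1, that is 5 of 37 members called higher and none lower. Of all 12953 genes tested, 2.30% were called higher and 2.62% lower. The members' median log2 fold change was 0.71 against -0.03 over all genes. An unadjusted p under 0.05 was found for 10 members, without a share of all genes beside it. Against PrE, 4 of 37 were called higher, Tmem41b, Gabarapl2, Map1lc3b and Atg13, and none lower, with 1.74% of 12246 genes called higher and 2.07% lower. The median was 0.84 against 0.05 over all genes, and 8 members had an unadjusted p under 0.05, again without such a share. Against whole control ICMs, with EPI and PrE cells summed per embryo, 7 of 37 were called higher (Tmem41b, Map1lc3b, Gabarapl2, Atg4b, Ulk1, Atg13 and Gabarap) and none lower, beside 3.10% and 4.27% of 14105 genes; the medians were 0.69 and -0.10. These comparisons share the 2 MUT embryos, and the third also shares the control cells. With 2 WT embryos as the only controls, 1 member was called against EPI, 2 against PrE and 1 against whole ICMs.

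EPI and PrE of the same embryos differed in 3 of 34 members tested, all higher in EPI: Gabarapl2, Atg13 and Map1lc3b. None was called higher in PrE. Of 9762 tested genes, 4.61% were called higher in EPI and 5.20% in PrE, and with 34 members tested the counts of 3 and 0 do not set the members apart. Of the 34, 15 had a log2 fold change above 0, beside 51.6% of all genes. The median log2 fold change of the members was -0.05, beside 0.03 over all genes. An unadjusted p under 0.05 was found for 8 members, and the share of all genes at that level was not taken. Ulk2, Atg9a and Wipi1 were too low to be tested. With WT embryos alone, 2 in number, edgeR called 0 members and 3 of all genes, and 3 members had an unadjusted p under 0.05. DESeq2 on all embryos called the same 3 members higher in EPI and Gabarapl1 lower, and its share of all genes is not given here.

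The MUT difference was larger at E4.5 than at E3.5 for Tmem41b, Map1lc3b, Gabarapl2, Ulk1, Atg13 and Atg4b. These 6 of 37 members were called in the test of the interaction between stage and genotype and none was called in the other direction, beside 2.71% of 16410 genes called above 0 and 2.75% below 0. The members' median was 0.61 and that of all genes -0.08. An unadjusted p under 0.05 was found for 9 members, without a share of all genes beside it. The E4.5 difference in this test was that from whole control ICMs. For Ulk1, Atg13 and Gabarapl2 the E3.5 log2 differences were -0.11, -0.08 and 0.16, and none of these passed.

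**Figure D3:**
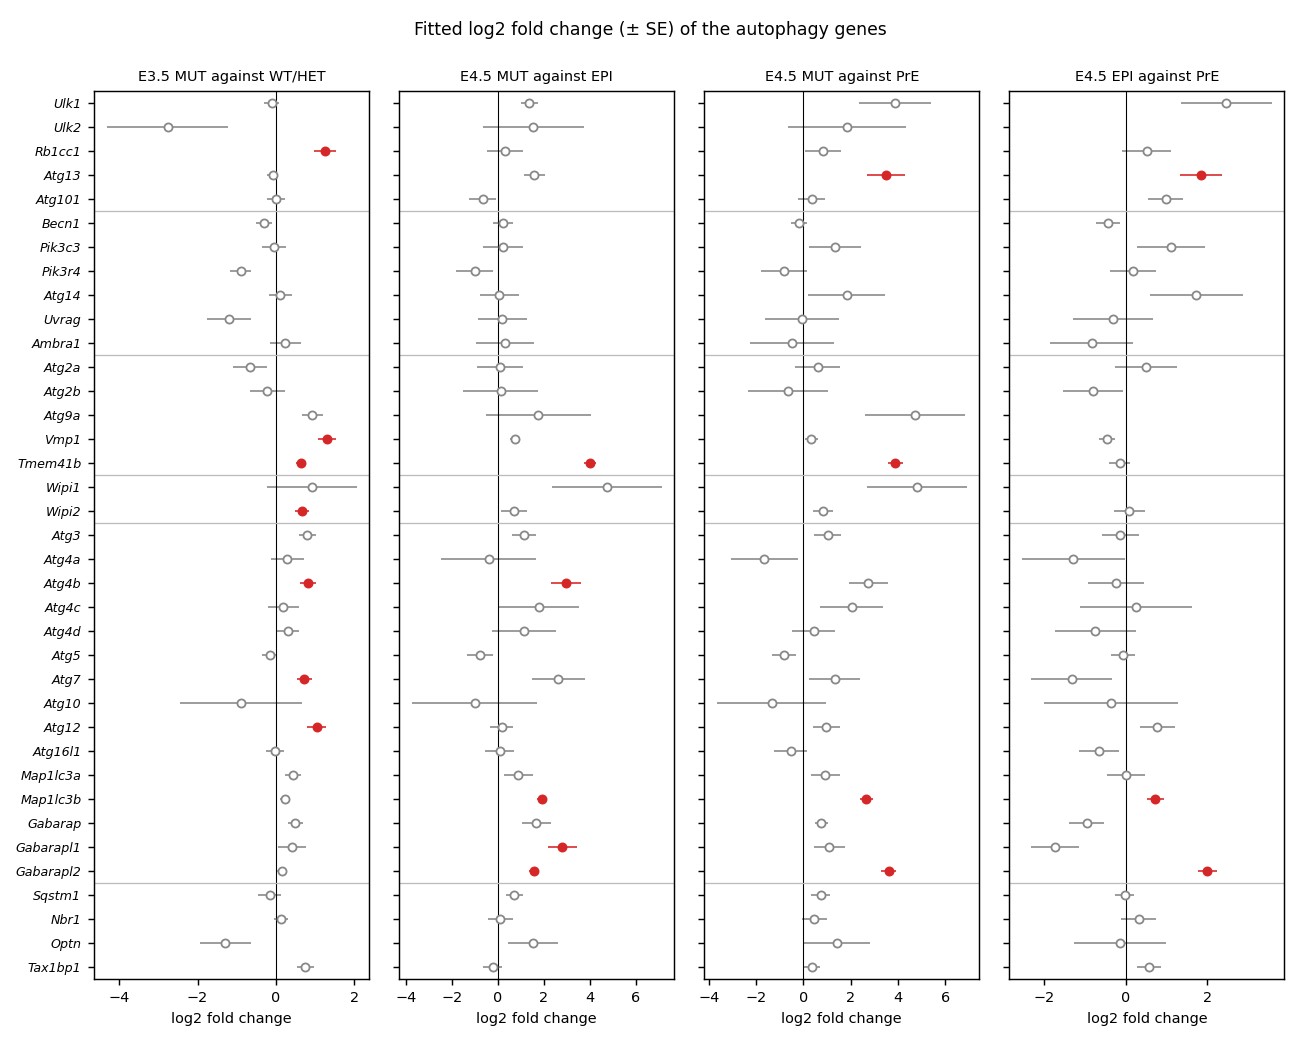
Fitted log2 fold change of each of the 37 genes (rows, by step) with its standard error (bars) in 4 comparisons, each panel with its own x axis. Filled red points passed an adjusted p of 0.05, namely 7 genes at E3.5, 5 against EPI, 4 against PrE and 3 between EPI and PrE, all to the right of 0.

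Among the ULK complex genes, Ulk1, the kinase that starts autophagy, differed at E4.5 and not at E3.5. Its level was 80.7 to 133 CPM with a median of 106 in E3.5 controls, and 100.1, 95.1, 76.2 and 119 CPM in MUT embryos 10, 12, 17 and 19. It was 23.2 to 45.3 CPM (median 37.4) in EPI and 0 to 15.2 CPM (median 6.53) in PrE, against 90.2 and 101 CPM in E4.5 MUT embryos 3 and 8. Both E4.5 MUT values lay above all control values of that stage and within the range of E3.5. Ulk1 was called against whole ICMs, at a log2 fold change of 1.98 ± 0.35 (SE, adjusted p = 0.011), and was not against EPI (1.37 ± 0.38, adjusted p = 0.0745) or PrE (3.87 ± 1.53, adjusted p = 0.238), where 2 embryos were at 0. The call was lost without MUT embryo 3 or 8. Its interaction was 2.08 ± 0.35 (adjusted p = 0.00179) and held in all 19 fits that left out 1 embryo. Ulk1 had counts in 58 of 58 E3.5 control cells, 24 of 37 EPI, 11 of 29 PrE and 16 of 19 E4.5 MUT cells.

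Atg13, the regulatory subunit that links ULK1 to the rest of the complex, separated EPI from PrE, and its MUT value rested on 1 embryo. It was at 156 to 207 CPM (median 175) in E3.5 controls and at 135, 199, 174 and 159.6 CPM in E3.5 MUT. At E4.5 it was at 67.4 to 118 CPM (median 85.8) in EPI and at 8.16 to 73.9 CPM (median 15.2) in PrE, of which embryo 6 was the highest. MUT embryo 3 had 443 CPM and embryo 8 had 95.3, the latter within the EPI range. The difference was 1.84 ± 0.52 between EPI and PrE (adjusted p = 0.0366) and 3.48 ± 0.80 between MUT and PrE (adjusted p = 0.0444). The former held only when embryo 6 was left out, and the latter only when embryo 6 or 8 was, in the fits that left out 1 embryo. Without MUT embryo 3 the MUT difference from PrE was 2.01, and the interaction fell from 2.22 to 0.71 and was lost. In embryo 3 Atg13 had counts in 11 of 11 cells, and the cell with most of them held 22.2% of the counts.

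Rb1cc1 (FIP200), the scaffold of the ULK complex, was raised in MUT at E3.5 alone among the comparisons. Its level was 76.0 to 149 CPM (median 116) in controls and 416, 149, 152 and 299 CPM in MUT. Embryo 12 thus stood level with the highest control. The difference was 1.25 ± 0.29 (adjusted p = 0.0232) and was lost without MUT embryo 10 or 19. At E4.5 EPI ran from 3.73 to 47.2 CPM (median 34) and PrE from 10.2 to 48.8 (median 18.5), and MUT embryos had 53.1 and 26.1 CPM. Of its 50-base stretches, 7.6% also occur in other genes' transcripts, among them a processed pseudogene. Ulk2 was at or near 0 throughout, with a mean of at most 0.52 FPKM in any group, and Atg101 passed in no comparison, at log2 differences between -0.67 and 0.98.

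No gene of the PI3-kinase complex was called by edgeR in the 6 fits, and 1 had an unadjusted p under 0.05, Pik3r4 at E3.5. Its 6 members are the lipid kinase Pik3c3 (VPS34), its pseudokinase partner Pik3r4, Becn1, Atg14, Uvrag and the regulator Ambra1. Between E4.5 MUT and EPI their log2 differences ran from -1.02 (Pik3r4) to 0.30 (Ambra1), and between MUT and PrE from -0.81 (Pik3r4) to 1.83 (Atg14). At E3.5 they ran from -1.19 (Uvrag) to 0.23 (Ambra1), and the smallest adjusted p was 0.0634, for Pik3r4, at -0.90 ± 0.26. Pik3r4 was called lower there in 2 of 17 alternatives, DESeq2 among them, and Uvrag in 1 of 17. Becn1 was the highest of them at E4.5, at 16.3 FPKM in EPI, 22.01 in PrE and 19.3 in MUT. Its exons overlap those of Cntd1 on the other strand over 43.9% of their length, and the strand setting of the counting is not given in the sources used here, so reads of these genes may not be told apart. Atg14 had counts in 58 of 58 E3.5 control cells and in 24 of 37 EPI, 13 of 29 PrE and 7 of 19 E4.5 MUT cells.

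Tmem41b, an endoplasmic reticulum scramblase (GRCm38 chr7:109972187-109986929, minus strand), showed the largest E4.5 difference among the called members, and its calls held in every alternative. Its level was 1738 to 2504 CPM (median 2315) in E3.5 controls and 3610.1, 3038, 3304 and 3427 CPM in the E3.5 MUT embryos, which all lay above every control. At E4.5 it was 115 to 226 CPM (median 137) in EPI and 90.7 to 244 CPM (median 176) in PrE. The E4.5 MUT embryos 3 and 8 had 2121 and 2932 CPM, within and above the range of E3.5 controls. MUT exceeded control by 0.63 ± 0.12 on the log2 scale at E3.5 (adjusted p = 0.0103), EPI by 4.002 ± 0.27 (adjusted p = 6.85e-05) and PrE by 3.88 ± 0.32 (adjusted p = 0.000289). Over the alternatives the values lay between 0.48 and 0.69, 3.76 and 4.22, and 3.48 and 4.16. The interaction was 3.32 ± 0.21 (adjusted p = 2.91e-08). EPI and PrE did not differ by this test (-0.15 ± 0.26, adjusted p = 0.836). The single cells are those added up in the sums, so they give no separate evidence. The lowest E4.5 MUT cell, at 155 CPM in embryo 3, lay within the range of control cells. Of the 19 E4.5 MUT cells, 18 had more Tmem41b than the highest of the 66 control cells, which stood at 402 CPM, and this held for 10 of 11 cells of embryo 3 and 8 of 8 of embryo 8. Of its 50-base stretches, 9.99% occur elsewhere, nearly all in a processed pseudogene, and pairs aligned to several places were not counted.

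**Figure D4:**
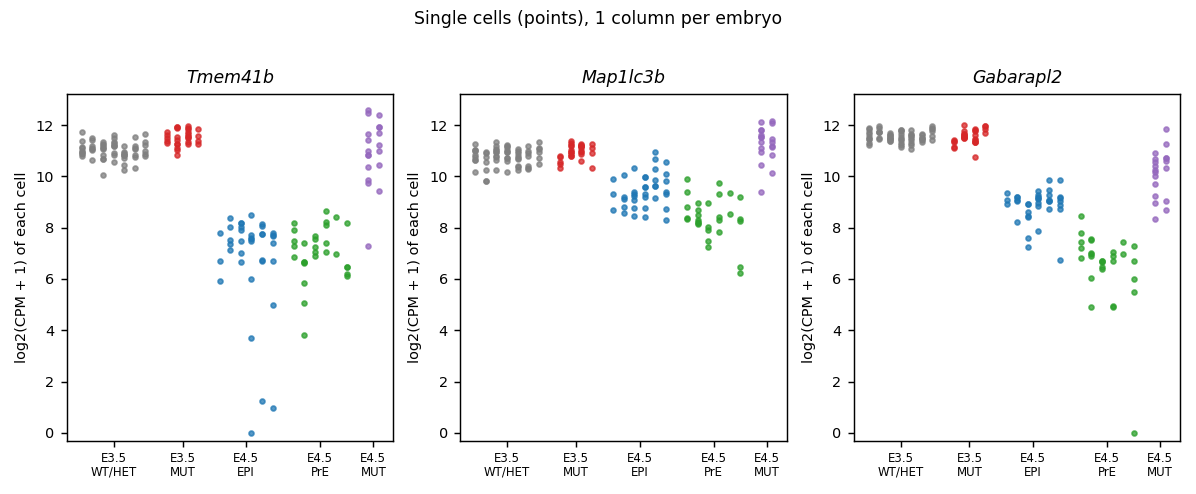
Level of Tmem41b, Map1lc3b and Gabarapl2 in every cell as log2(CPM + 1), by group, with 1 column of points per embryo. For Tmem41b, 18 of 19 E4.5 MUT cells lie above all EPI and PrE cells, and for Map1lc3b and Gabarapl2 14 and 13 do.

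Vmp1, the other endoplasmic reticulum scramblase, was raised in MUT at E3.5. Its level was 221 to 378 CPM (median 303) in controls and 1144, 469, 573 and 732 CPM in MUT, without overlap. The difference was 1.30 ± 0.23 (adjusted p = 0.00662), and it held in all 17 alternatives at values between 1.00 and 1.47. At E4.5 Vmp1 was at 195 to 307 CPM (median 236) in EPI and 184 to 415 CPM (median 353) in PrE, and at 376 and 461 CPM in MUT. Those differences were 0.75 ± 0.22 from EPI (adjusted p = 0.0826) and 0.33 ± 0.29 from PrE (adjusted p = 0.67). Vmp1 was detected in every cell of every group. Its level in E4.5 controls overlapped that in E3.5 controls, unlike that of Tmem41b.

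Atg9a, the scramblase carried on vesicles, and the lipid channels Atg2a and Atg2b were not called by edgeR in the 6 fits. Atg9a was called higher at E3.5 in 3 of 17 alternatives, DESeq2 among them, and Atg2b was called lower against whole ICMs, and below 0 for the interaction, only without MUT embryo 8. Atg9a averaged 72.8 CPM ± 29.2 (SD, n = 7) in E3.5 controls and 137 ± 27.5 (n = 4) in MUT (0.93 ± 0.27, adjusted p = 0.0637). At E4.5 it was detected in 24.3% of EPI, 17.2% of PrE and 42.1% of MUT cells, and it was at 0 in 3 EPI and 4 PrE sums. Other genes overlap 32.6% of its exon length. Atg2a was at 8.44 FPKM in E3.5 controls and at 2.41, 1.71 and 2.57 FPKM in EPI, PrE and E4.5 MUT.

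The PI3P readers differed at E3.5 through Wipi2, which brings the conjugation enzymes to the membrane. Its level was 122 to 183 CPM (median 138) in controls and 276, 158, 229.9 and 237 CPM in MUT, of which embryo 12 lay within the control range. The difference was 0.68 ± 0.18 (adjusted p = 0.0415), and of the fits that left out 1 embryo it held only without MUT embryo 12 or WT embryo 14. At E4.5 Wipi2 ran from 31.6 to 156 CPM (median 73.1) in EPI and 51.8 to 121 (median 60.3) in PrE, with 85.1 and 182 CPM in MUT. Wipi1 had counts in 1 EPI cell of 37, that is 2.70%, in 13.8% of PrE cells and in 52.6% of E4.5 MUT cells. Its sums were 7.11 and 58.9 CPM in MUT and at 0 in 5 of 6 EPI and 4 of 6 PrE sums, and the fitted differences from EPI and PrE did not pass (adjusted p = 0.321 and 0.291).

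**Figure D5:**
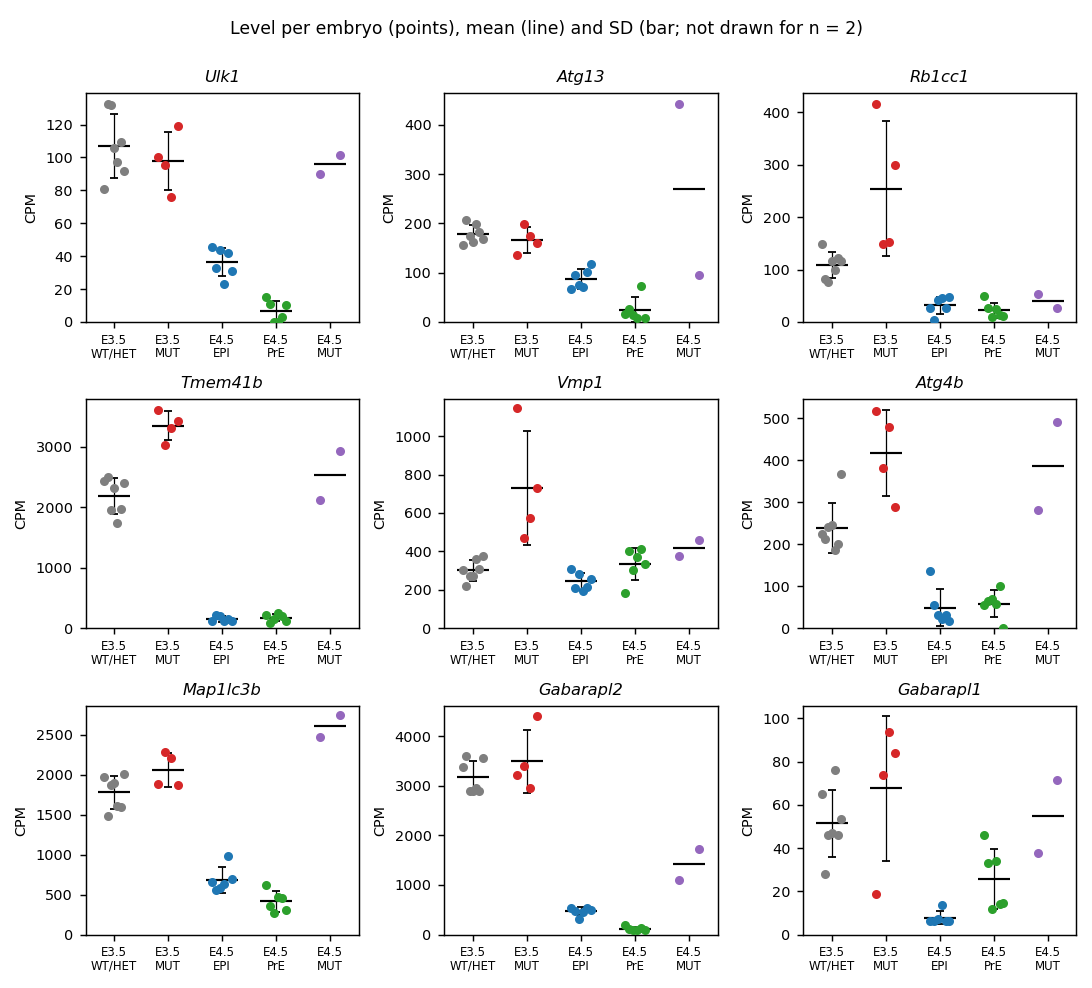
CPM (y axes, from 0) of 9 genes of the ULK complex, lipid transfer and conjugation in each embryo (points), with the group mean (line) and SD (bar, left out for the 2 E4.5 MUT embryos). Tmem41b, Map1lc3b and Gabarapl2 of E4.5 MUT lie above all EPI and PrE points, whereas Vmp1 and Rb1cc1 stand out in E3.5 MUT.

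Of the proteins that conjugation attaches to the membrane, Map1lc3b and Gabarapl2 carried the difference at E4.5. Map1lc3b, which encodes LC3B (chr8:121590361-121598760, plus strand), was at 1489.8 to 2011 CPM (median 1876) in E3.5 controls and at 1888, 2282, 2208 and 1873 CPM in MUT (0.23 ± 0.12, adjusted p = 0.281). At E4.5 it was at 552 to 988 CPM (median 640.0) in EPI, 265 to 620.5 CPM (median 411) in PrE, and 2472 and 2744 CPM in MUT. MUT thus stood above all controls of both stages, by 1.90 ± 0.21 from EPI (adjusted p = 0.000984) and 2.66 ± 0.28 from PrE (adjusted p = 0.000891). These calls held in all 8 fits that left out 1 embryo. With WT embryos alone as controls the call against PrE held and that against EPI did not. EPI exceeded PrE by 0.72 ± 0.21 (adjusted p = 0.0431), which held only without embryo 1 when single embryos were left out. Of the 19 E4.5 MUT cells, 14 had more Map1lc3b than the highest control cell, at 1979 CPM. Of its 50-base stretches, 5.97% occur elsewhere.

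Gabarapl2, or GATE-16, of the GABARAP subfamily (chr8:111940703-111953612, plus strand), was graded over the E4.5 groups. It was at 2895 to 3593 CPM (median 2960.2) in E3.5 controls and at 3223, 3395, 2952 and 4399.7 CPM in E3.5 MUT (0.16 ± 0.13, adjusted p = 0.533). At E4.5 the PrE sums were lowest, at 81.9 to 197 CPM (median 104), the EPI sums were at 314 to 539 CPM (median 487), and the MUT embryos were at 1103 and 1730.5 CPM. The 3 groups did not overlap. EPI exceeded PrE by 2.004 ± 0.23 (adjusted p = 6.17e-05), and MUT exceeded EPI by 1.57 ± 0.23 (adjusted p = 0.0044) and PrE by 3.60 ± 0.32 (adjusted p = 0.000386). The call against EPI was lost without MUT embryo 8, and the others held without any 1 embryo. With WT embryos alone as controls all 3 calls were lost. The adjusted p by edgeR was then 0.182 for EPI against PrE, 0.129 for MUT against EPI and 0.0687 for MUT against PrE. In contrast to Tmem41b and Map1lc3b, both E4.5 MUT values lay below all those of E3.5. Of its 50-base stretches, 12.2% occur elsewhere, mainly in processed pseudogenes.

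The 3 remaining family members were less abundant. Gabarapl1 was at 27.8 to 76.1 CPM (median 46.9) in E3.5 controls and at 18.9, 73.8, 93.9 and 83.9 CPM in E3.5 MUT. It was at 6.04 to 13.9 CPM (median 6.47) in EPI, 12 to 46.2 CPM (median 23.9) in PrE and 37.7 and 71.6 CPM in E4.5 MUT, above all EPI sums (2.79 ± 0.63, adjusted p = 0.0369), a call that held only without embryo 1 or 5 among the fits that left out 1 embryo. A transcript on the other strand overlaps 28.3% of its exon length. Gabarap was at 84.8 to 141 CPM (median 118) in E3.5 controls, 109, 168, 176 and 201 CPM in E3.5 MUT, 8.68 to 91.6 CPM (median 42.7) in EPI, 72.3 to 109 CPM (median 90.1) in PrE, and 145 and 154 CPM in E4.5 MUT. It passed against whole ICMs only (1.18 ± 0.31, adjusted p = 0.0497), a call kept only without embryo 1 when single embryos were left out. Map1lc3a was at 65.0 to 122 CPM (median 86.0) in E3.5 controls and 125, 87.8, 126 and 119 CPM in MUT. It was at 14.4 to 80.5 CPM (median 36.8) in EPI and 17.6 to 57.9 CPM (median 47.1) in PrE. Its E4.5 MUT embryos, at 36.1 and 115 CPM, fell within and above these ranges, and it passed in no comparison.

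Among the enzymes of conjugation, Atg4b, the protease that trims LC3 and GABARAP proteins before and after their use, was higher in MUT at both stages. It was at 187 to 367 CPM (median 226) in E3.5 controls and at 518, 381, 479 and 289 CPM in MUT (0.82 ± 0.21, adjusted p = 0.0348). WT embryo 18 was the highest control and overlapped MUT embryo 19. At E4.5 it was at 17.7 to 136 CPM (median 31.3) in EPI and 1.71 to 101 CPM (median 61.3) in PrE, against 281 and 492 CPM in MUT. MUT exceeded EPI by 2.96 ± 0.64 (adjusted p = 0.031) and whole ICMs by 3.00 ± 0.51 (adjusted p = 0.0086), and the difference from PrE, 2.75 ± 0.82, was not called (adjusted p = 0.0938). Of fits without 1 embryo, the E3.5 call held only without MUT 12, MUT 19 or WT 18, that against EPI only without embryo 1, and that against whole ICMs in all but the fit without MUT embryo 8 (adjusted p = 0.0586). Atg4b had counts in 64.9% of EPI, 69.0% of PrE and 94.7% of E4.5 MUT cells.

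Atg12 and Atg7 were called at E3.5. Atg12, the ubiquitin-like protein joined to ATG5, was at 45.4 to 127 CPM (median 78.5) in controls and at 163, 125, 164 and 199.8 CPM in MUT (1.04 ± 0.24, adjusted p = 0.0229). WT embryo 9 was the highest control and lay just above MUT embryo 12, and the call was lost without MUT embryo 10, 17 or 19. Atg7, the activating enzyme of both conjugation systems, was at 36.5 to 74.5 CPM (median 53.0) in controls and 90.5, 86.5, 105 and 70.8 CPM in MUT (0.73 ± 0.20, adjusted p = 0.049), a call kept only without WT embryo 14 or MUT embryo 19. At E4.5 Atg12 was at 28.6 to 108 CPM (median 71.2) in EPI, 21.5 to 72.0 CPM (median 29.8) in PrE and 84.4 and 69.1 CPM in MUT. Atg7 was at 0.159 to 30.2 CPM (median 6.46) in EPI, 2.14 to 82.3 CPM (median 15.9) in PrE and 20.8 and 107 CPM in MUT. Neither passed at E4.5. Of the remaining 7 enzymes and scaffolds, Atg3, the enzyme that hands LC3 to the lipid, came closest, at 0.80 ± 0.22 in E3.5 MUT (adjusted p = 0.0506). Atg5 stood lower in E4.5 MUT, at 12.8 FPKM against 21.9 in EPI and 22.9 in PrE, but did not pass (-0.81 in the EPI and -0.83 in the PrE comparison). Atg4a shares 51.2% of its 50-base stretches with the copy Atg4a-ps, so its values are uncertain.

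Promoters of the members were searched for the E-box CACGTG, the core of the motif bound by TFEB, a factor that activates lysosomal and autophagy genes. RefSeq promoters of build GRCm38.p6, each with 250 bases before and 50 after a transcription start, were found for 31 of the 37 genes. The E-box, which reads alike on both strands, occurred in those of Atg14, Atg3, Atg5 and Atg7, which is 4 of 31 or 12.9%. Over all genes, with a single promoter kept for each, the E-box was in 7.24% of 27025. A member was counted if any of its promoters held the motif, so the shares are not on the same footing. None of the 31 held, on either strand, ATGCAAAT, the octamer bound by OCT4, which 1.75% of the 27025 promoters held. Among the genes with the E-box, Atg7 was called at E3.5 and none at E4.5, and no E-box was in the windows of Tmem41b, Map1lc3b, Gabarapl2, Vmp1 and Atg4b. A match is a run of letters and not a binding site. The windows with the E-box are shown 5′ to 3′ on the strand of the gene, with the E-box in capitals and 20 bases on either side.
Atg3, chr16:45158715-45158760, plus strand: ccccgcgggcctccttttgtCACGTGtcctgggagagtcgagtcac
Atg3, chr16:45158738-45158783, plus strand: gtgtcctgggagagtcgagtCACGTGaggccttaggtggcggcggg
Atg5, chr10:44268305-44268350, plus strand: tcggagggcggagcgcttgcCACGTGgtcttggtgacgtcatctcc
Atg7, chr6:114670944-114670989, plus strand: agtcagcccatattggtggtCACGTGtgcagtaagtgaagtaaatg
Atg14, chr14:47568410-47568455, minus strand: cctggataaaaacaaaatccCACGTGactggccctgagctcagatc

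No receptor was called by edgeR in the 6 fits. Sqstm1, or p62, which ties ubiquitinated cargo to LC3, was at 531 to 851 CPM (median 689.9) in E3.5 controls and at 205, 853, 720.1 and 736 CPM in E3.5 MUT, of which embryo 10 was low and the others lay within or just above the control range. At E4.5 it was at 127 to 285 CPM (median 194) in EPI and 132 to 263 CPM (median 215) in PrE. MUT embryo 3 had 486 CPM, above both lineages, and embryo 8 had 183, within them. The log2 difference was 0.71 ± 0.37 from EPI (adjusted p = 0.335) and 0.72 ± 0.39 from PrE (adjusted p = 0.402). In embryo 3, 1 cell of 11 held 40.5% of the Sqstm1 counts. Mrnip overlaps 17.3% of its exon length on the other strand. Of the other receptors of ubiquitinated cargo, Tax1bp1, Nbr1 and Optn differed between E4.5 MUT and EPI by -0.24, 0.10 and 1.52. Tax1bp1 came closest to a call at E3.5, at 0.75 ± 0.22 (adjusted p = 0.0634). It was called higher there in 2 of 17 alternatives, DESeq2 among them. Optn was called lower in 1 of 17 at E3.5, with cells weighted equally, and above 0 in 4 of 25 for the interaction, DESeq2 again among them.

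More members were detected in E3.5 than in E4.5 cells, as were more genes of any kind. The median cell held counts of 9397.5 genes in E3.5 controls and 8890.0 in E3.5 MUT, against 6965 in EPI, 7169 in PrE and 6514 in E4.5 MUT. Of the 37 members, a cell held counts of 32.9 ± 0.917 members in E3.5 controls (mean and SD of 7 embryo means) and 31.9 ± 1.33 in E3.5 MUT (n = 4), against 23.1 ± 1.92 in EPI (n = 6), 23.8 ± 2.64 in PrE (n = 6) and 24.4 ± 3.73 in E4.5 MUT (n = 2). After thinning each cell to 500000 counts the values were 32.7, 31.7, 22.2, 23.2 and 23.5. By this count E4.5 MUT cells did not stand apart from EPI and PrE, in contrast to the summed level of the members. The median member was detected in 64.9% of EPI, 69.0% of PrE and 68.4% of E4.5 MUT cells, and in 100% of cells in both E3.5 groups. In E4.5 MUT cells Atg4a, Atg10 and Ulk2 were the least often detected, each in 10.5% of cells, whereas in EPI it was Wipi1 and in PrE Ulk2, at 6.90% of cells.

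A wider list of 47 autophagy genes, made up of 3 upstream kinases, 6 regulators of the PI3-kinase complex, 4 PI3P effectors, 3 relatives or partners of the core proteins, 13 fusion factors and 18 receptors of organelles, showed where else the groups differed. At E3.5, 7 of 43 tested were called higher in MUT and 1 lower, beside 3.20% and 2.98% of all tested genes. The median log2 fold change of the list was 0.10, beside -0.02 over all genes. The smallest adjusted p among the higher genes belonged to Prkaa1, a catalytic subunit of AMPK (0.98 ± 0.18, adjusted p = 0.00694), the PI3P reader Wdr45b (1.23 ± 0.22, adjusted p = 0.00765) and Vamp8, a SNARE of fusion with lysosomes (1.14 ± 0.23, adjusted p = 0.0128). Wdfy3, a scaffold for aggregate clearance, was lower (-1.93 ± 0.45, adjusted p = 0.0262). At E4.5, 3 of 44 were higher in MUT than in EPI and none lower (2.30% and 2.62% of all genes; list median 0.55, all genes -0.03): Vamp8 (3.83 ± 0.44, adjusted p = 0.0014), Bnip3, a receptor of mitochondria (3.39 ± 0.44, adjusted p = 0.00242), and Wdr45b (1.54 ± 0.33, adjusted p = 0.031). Against PrE, 3 of 44 were higher and none lower (1.74% and 2.07% of all genes; list median 0.57, all genes 0.05), namely Bnip3 (3.25 ± 0.49, adjusted p = 0.0066), its relative Bnip3l (2.23 ± 0.48, adjusted p = 0.0358) and Vamp8 (1.24 ± 0.28, adjusted p = 0.0441). Bnip3 reached 440.3 and 686 CPM in the E4.5 MUT embryos, from 21.8 to 91.3 CPM in EPI and 20.5 to 103 CPM in PrE. Against whole ICMs 3 of 46 were higher and none lower (3.10% and 4.27% of all genes; list median 0.44, all genes -0.10), Bnip3 (3.29 ± 0.45, adjusted p = 0.00298), Vamp8 (2.08 ± 0.38, adjusted p = 0.0122) and Calcoco1, a receptor of the endoplasmic reticulum (2.37 ± 0.45, adjusted p = 0.0138).

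Between the control lineages, 4 of 40 genes of the wider list were called higher in PrE and 1 in EPI, beside 5.20% and 4.61% of all tested genes. The list median was -0.08, beside 0.03 over all genes and -0.05 over the core members. Those higher in PrE were led by Vamp8 (EPI against PrE -2.62 ± 0.33, adjusted p = 0.000154), Sec62, a receptor of the endoplasmic reticulum (-1.01 ± 0.25, adjusted p = 0.0167), and Rab7, a GTPase of late endosomes (-0.65 ± 0.16, adjusted p = 0.0173). Bnip3l was the gene higher in EPI (1.59 ± 0.39, adjusted p = 0.0166). In the interaction 1 of 47 was called, below 0, beside 2.75% of all genes (list median 0.49, all genes -0.08). This was Ncoa4, the ferritin receptor (-2.40 ± 0.49, adjusted p = 0.00718), which was higher in MUT at E3.5 (1.27 ± 0.27, adjusted p = 0.0149) and differed from whole ICMs by -1.11 ± 0.45 at E4.5 (adjusted p = 0.185). The summed level of the wider list averaged 2836 CPM ± 202 (SD, n = 7) in E3.5 controls, 2586 ± 199 (n = 6) in EPI and 3019 ± 286 (n = 6) in PrE. It thus lacked the gap between E3.5 and E4.5 controls that the 37 members showed. The members averaged 10510.1 ± 804, 3025.5 ± 267 and 2387 ± 397 CPM in those groups, with plate and stage still joined. In the same order, Tmem41b, Gabarapl2 and Map1lc3b together averaged 7138, 1306 and 704 CPM, and the other 34 members 3372, 1719 and 1683 CPM. Most of the members' gap thus lay in 3 genes. Phb2 was the most abundant gene of the wider list, and a sum without it is not given here. In E3.5 and E4.5 MUT the wider list averaged 3593 ± 320 and 4458 ± 122 CPM.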

How the data were processed

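Single ICM cells were sequenced by Smart-seq2. The values are raw counts of read pairs per gene and cell, which the authors deposited after aligning to GRCm38/mm10 with STAR and counting with HTSeq on Ensembl genes. Pairs aligned to several places, in no gene or in more than 1 gene (32.3%, 4.72% and 8.65% of pairs) were set apart and not used here. The median share per cell aligned to several places was 38.8% in E3.5 controls and 41.1% in E3.5 MUT. It was 24.9% in EPI, 19.7% in PrE and 22.0% in E4.5 MUT. The part of this in the levels at the stages was not tested. Symbols came from a GENCODE annotation of the same build.

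Embryo sums, used because cells of an embryo are not independent, were compared by edgeR's quasi-likelihood test (version 4.0.16, in R 4.3.3) after filterByExpr and TMM scaling. P was adjusted by Benjamini-Hochberg over all tested genes, with a threshold of 0.05. Alternatives were DESeq2 1.42.0, its size factors, no filter, limma 3.58.1 on cells weighted equally, shallow cells left out, WT embryos as sole controls, each embryo left out and, at E4.5, 3 groups in 1 fit. CPM by embryo used TMM over all 25 sums, and single-cell CPM used the counts of the cell. FPKM used exon length. The tests were also run on simulated counts with the same spread assumed in both groups, and the outcome is not given here. That run cannot show how they behave if MUT embryos vary otherwise than controls.

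Whether litters, dates or lanes differed between groups is not given in the sources used here. The p-values rest on the spread between embryos of a group, which would miss a batch difference lying between the groups. EPI and PrE sums came from the same 6 embryos, so these samples are paired by design. The deviations of paired sums from their group means correlated at 0.0662, 0.0465, 0.00894, 0.0424, 0.0142 and 0.0473. The embryo was used as a replicate block in an alternative.

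The members and the wider gene list were chosen with earlier results of these data known. Values per embryo are given for every member called in at least 1 of 6 fits, for the LC3 and GABARAP genes and for Sqstm1. Other members are given by step, with the highest and lowest FPKM, and by their range. Up to 3 genes per direction and comparison are given of the wider list.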

Additional observations from a re-analysis of the deposited data

Results flagged for a closer look

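The difference between MUT and control at E4.5 differed from that at E3.5 for 6 members in the test of the interaction. On the log2 scale the E4.5 difference exceeded the E3.5 one by 3.32 for Tmem41b, 1.87 for Map1lc3b, 1.95 for Gabarapl2, 2.08 for Ulk1, 2.22 for Atg13 and 2.17 for Atg4b. The Atg13 value was lost without MUT embryo 3 (0.71) and that of Atg4b without MUT embryo 8 (1.72). Stage and plate cannot be told apart, although each difference was taken within a plate.

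Among 15 members with values for every embryo, 60 groups of 4 to 7 embryos were screened for a single embryo far from the others, and 7 were found. The cutoffs used pass about 1 in 20 groups of independent, normally distributed values. Unlogged CPM of the same embryos over many genes need not meet this, so the count of 7 was not set against chance. In PrE, embryo 6, with 2 cells, was high for Atg13 at 73.9 CPM (next 26.9), and embryo 1 for Atg7 at 82.3 CPM (next 26.6). In EPI, embryo 1, with 3 cells, was high for Atg4b at 136 CPM (next 55.2), embryo 5 for Gabarapl1 at 13.9 CPM (next 7.09) and embryo 6 for Map1lc3b at 988 CPM (next 691), while embryo 4 was low for Gabarapl2 at 314 CPM (next 463). Among E3.5 controls, WT embryo 18 was high for Atg4b at 367 CPM (next 245).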

How the results depend on the processing

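The number of members called moved with the test and the controls. DESeq2 called 11 members at E3.5 (10 higher, 1 lower) in place of 7, and 8 in place of 5 between E4.5 MUT and EPI. The shares of all genes that DESeq2 called are not given here, so its larger counts do not set the members apart. With WT embryos alone as controls, the count was 2 at E3.5, 1 against EPI, 2 against PrE, 1 against whole ICMs and 0 between EPI and PrE. The E4.5 WT group held 2 embryos, and edgeR then called 48, 27, 25 and 3 of all genes in those E4.5 comparisons. For E3.5 with WT controls the count over all genes is not given here. Between EPI and PrE the count was 1 with no filter on low counts and 6 with cells weighted equally (4 higher in EPI, and Gabarap and Gabarapl1 higher in PrE). The other 31 counts under alternatives stayed within 1.5 times. With the embryo as a replicate block, EPI and PrE differed in the same 3 members, so the paired fit changed no call.

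Leaving out 1 embryo at a time gave 2 to 8 members at E3.5, with 2 without MUT embryo 10 and 4 without embryo 9, 11, 13, 16, 17 or 19. Against EPI it gave 3 to 5, with 3 without embryo 2, 3, 4, 6, 7 or 8, and against PrE 3 to 4. Between EPI and PrE it gave 1 to 3, with 1 without embryo 2, 4, 5 or 7. Against whole ICMs it gave 4 to 7, with 4 without MUT embryo 3, and the interaction gave 5 to 7. Leaving out an E4.5 MUT embryo left 1, assumed to vary like the controls. For the fits that left out 1 embryo, the shares of all genes called are not given here. A fall in the count of members thus cannot be told from a general loss of calls. No value of a called member changed direction. Under other settings 171 calls held and 36 were lost, and without 1 embryo 259 held and 78 were lost. The cause was not tested.

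With Tmem41b left out, the log2 ratio of summed lipid transfer genes fell from 2.77 to 0.75 against EPI and from 2.46 to 0.36 against PrE. With Tmem41b, Gabarapl2 and Map1lc3b left out, a setting chosen after seeing the data, the ratio over all members was 0.82 against EPI, 0.85 against PrE and 0.03 between EPI and PrE. Equal weight for each cell moved the median log2 difference over all tested genes to -0.23 at E3.5, -0.20 against EPI and -0.24 against PrE. Groups of 2 MUT embryos, and sums of as few as 2 cells, limit the E4.5 values, and low genes such as Ulk2, Wipi1 and Atg9a had embryos at 0.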
